A study of Arabidopsis thaliana with 4 samples.

Results

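The genes described here are 10 transcriptional regulators of the anthocyanin and flavonol pathways of Arabidopsis thaliana, chosen by locus from a list made for this work: PAP1, PAP2, TT8, GL3, EGL3, TTG1, MYBL2, CPC, MYB12 and MYB111. All 10 are among the 24288 loci of the deposited expression table. RNA came from whole seedlings of the Columbia ecotype grown for 12 days at 23 °C, under days of 16 h light and nights of 8 h, with 3% sucrose in the Murashige and Skoog medium. The 4 groups were wild type, the mutant atprmt5, which affects the gene of the arginine methyltransferase PRMT5, and the lines m90 and s215 from a study of suppressors of atprmt5. The labels name neither the atprmt5 allele nor the gene altered in m90 or s215, and do not say whether those lines carry atprmt5. Each genotype had 1 library, which allows no test, and every difference below is between 2 libraries.

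Anthocyanin synthesis is switched on by a complex of a MYB factor, a bHLH factor and the WD40 protein TTG1, which binds promoters of the late pathway genes such as DFR and LDOX. PAP1 and PAP2 are MYB activators of that complex, and TT8, GL3 and EGL3 are its bHLH partners. MYBL2 and CPC are small MYB proteins that lack the activating part and compete for the bHLH partner, so they act as repressors. MYB12 and MYB111 activate the early enzymes, such as CHS, and flavonol synthesis without a bHLH partner. TTG1, GL3, EGL3 and CPC also set the fate of trichome and root hair cells, and PAP1 transcripts are known to respond to sucrose.

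PAP1 and PAP2 belong to a group of near relatives with MYB113 and MYB114, which lie beside PAP2 on chromosome 1. The first 100 coding bases of each are shown because the s215 result below depends on telling these genes apart. They were read from the RefSeq reference TAIR10.1, and capitals mark bases that differ from PAP1.
PAP1: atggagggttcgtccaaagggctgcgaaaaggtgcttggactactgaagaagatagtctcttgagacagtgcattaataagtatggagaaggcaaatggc
PAP2: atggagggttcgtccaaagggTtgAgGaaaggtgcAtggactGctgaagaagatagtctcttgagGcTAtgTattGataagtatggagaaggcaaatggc
MYB113: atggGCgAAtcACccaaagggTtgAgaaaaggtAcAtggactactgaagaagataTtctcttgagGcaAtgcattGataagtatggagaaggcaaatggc
MYB114: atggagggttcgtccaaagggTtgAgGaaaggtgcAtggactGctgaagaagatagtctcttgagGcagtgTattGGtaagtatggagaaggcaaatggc
In this stretch PAP2 differed from PAP1 at 10 bases, MYB113 at 14 and MYB114 at 9. Over aligned coding sequence PAP1 and PAP2 were 84.3% identical, and PAP2 and MYB114 91.2%. None of the 903 windows of 100 bases in the PAP2 transcript came within 2 mismatches of the PAP1, MYB113 or MYB114 transcript. The values fit reads of 100 bases, and the sources used here do not give the mismatches the authors allowed.

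Some facts of the libraries bear on what follows. Values are RPKM, read numbers adjusted for transcript length and sequencing depth, and the totals recovered from them were between 17350612 and 17901204 reads. Brackets hold 95% counting intervals, which leave out variation between plants. PRMT5 itself was at 5.94 RPKM in wild type against 1.25 in atprmt5, 0.974 in m90 and 1.70 in s215. Among the libraries s215 stood apart, with an SD of the log2 ratio to wild type of 1.39 across 18688 loci, against 0.50 for both atprmt5 and m90. The 3 root markers PYK10, CASP1 and EXPA7 summed to between 1382 and 1570 RPKM in the other libraries and to 3.65 RPKM in s215, where CASP1 and EXPA7 were at 0. The root markers are therefore nearly absent from a library labelled as seedlings. The 3 leaf markers RBCS1A, LHCB1.1 and CAA1 summed to 2804 RPKM in s215 and to between 9490 and 11152 RPKM elsewhere. Of these, CAA1 differed most, with 49.4 RPKM in s215 where wild type had 1538. The 3 seed markers CRA1, CRC and OLEO1 were near 0 in both m90 and s215, with sums of 0.157 and 0.289 RPKM. Wild type had 163 RPKM of the seed markers and atprmt5 had 37.7, so m90 also differed here. The part of this difference in the m90 comparisons was not tested. In seedling RNA, fewer cells of a type and less RNA per cell cannot be told apart.

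A locus was called higher or lower where the ratio of RPKM + 1 reached 2-fold, and only loci averaging 1 RPKM or more across the libraries were considered. Of the 10 regulators 8 passed this minimum. PAP2 passed on s215 alone, which favours a difference there, while GL3 and MYB12, with means of 0.759 and 0.992 RPKM, did not pass. In atprmt5 against wild type, 2 regulators were higher, PAP1 and TT8, and 1 was lower, MYBL2, where 1.8% of all loci tested were higher and 3.32% lower. In m90 against wild type, PAP1 was the 1 regulator higher and 0 were lower, against 2.61% and 2.62% of loci. In s215 against wild type, PAP1 and PAP2 were higher and EGL3 lower, but there 12.7% of loci were higher and 24.3% lower, so these counts are near the background. Medians of the log2 ratio over the 10 regulators were 0.04 in atprmt5, 0.29 in m90 and -0.44 in s215, beside -0.00, -0.04 and -0.15 over all loci tested.

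**Figure D1:**
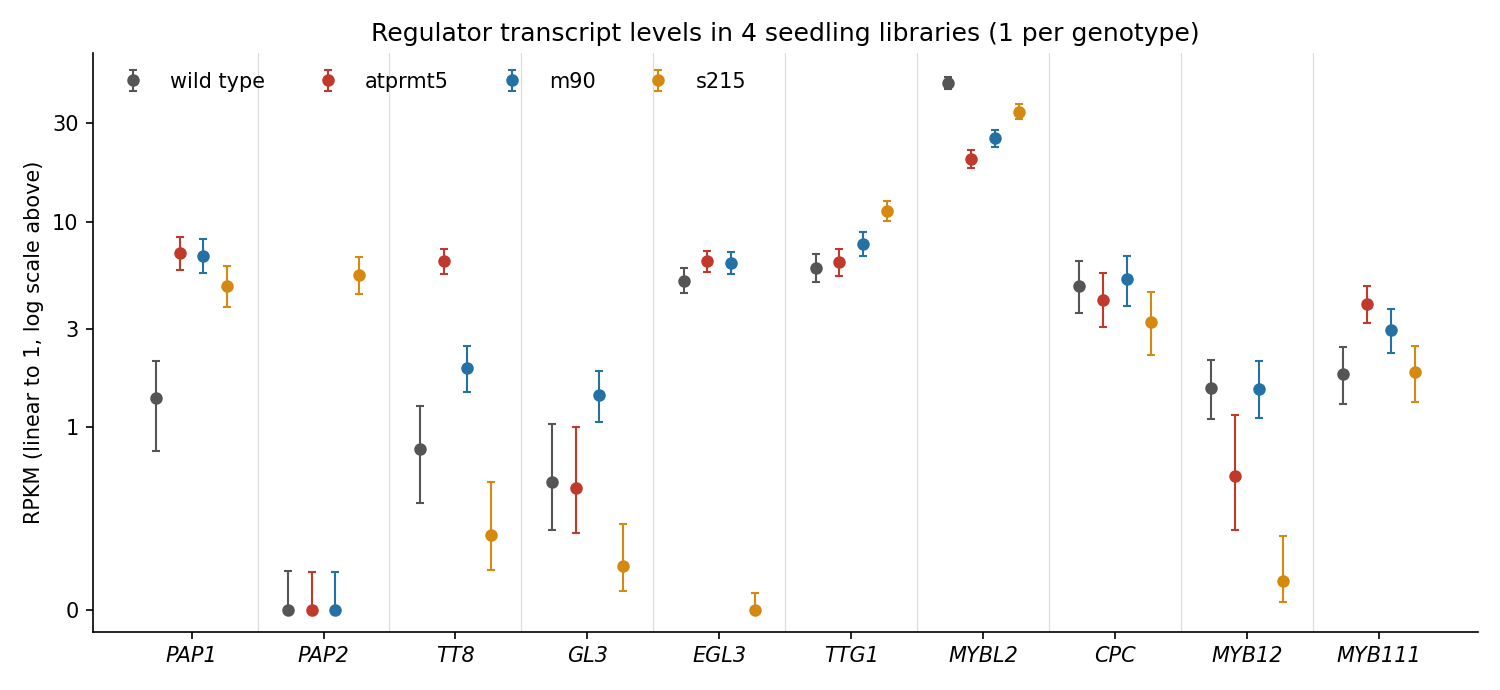
RPKM of each regulator (vertical axis, linear up to 1 and logarithmic above) in wild type, atprmt5, m90 and s215, with 1 point per library and bars for 95% Poisson counting intervals. PAP1 is lowest in wild type, TT8 stands out in atprmt5, PAP2 is above 0 in s215 alone and EGL3 is at 0 in s215 alone.

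PAP1 (AT1G56650, also MYB75, chromosome 1, 21233555 to 21235292, minus strand, 3 exons) was at 1.39 RPKM in wild type against 7.02 in atprmt5, 6.80 in m90 and 4.86 in s215. All 3 mutant lines were above wild type, where only 22 reads were counted. The ratio to wild type was 5.06 in atprmt5 (3.19 to 8.40), 4.90 in m90 (3.09 to 8.16) and 3.50 in s215 (2.15 to 5.90). Between m90 and atprmt5 no difference was detectable at this depth, with a ratio of 0.968 (0.741 to 1.27), and s215 was at 0.692 of atprmt5 (0.510 to 0.928). In rank, PAP1 moved from percentile 27.0 of all loci in wild type to percentile 53.0 in atprmt5.

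PAP2 (AT1G66390, also MYB90, chromosome 1, 24763941 to 24765541, plus strand, 3 exons) had 0 reads in wild type, atprmt5 and m90 and was at 5.51 RPKM in s215. With the library at 0 set to a floor of 3 reads, it was 31.4-fold higher in s215 than in wild type and 32.4-fold higher than in atprmt5. With the counting error of both libraries, the lower 95% limits of these ratios were 24.9 and 25.7. PAP2 was thus undetected in the atprmt5 and m90 libraries that had 7.02 and 6.80 RPKM of PAP1. With 1 library above 0, the read number behind the PAP2 value rests on a recovered length of 986 bases, close to the annotated 1002. The summed level of PAP1 and PAP2 was 1.39 RPKM in wild type against 7.02 in atprmt5, 6.80 in m90 and 10.4 in s215.

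TT8 (AT4G09820, chromosome 4, 6181881 to 6186523, plus strand, 7 exons), the bHLH partner most tied to pigment synthesis, was at 0.880 RPKM in wild type against 6.40 in atprmt5, 1.93 in m90 and 0.408 in s215. Its level in atprmt5 was high against the other 3, and s215 was lowest with 13 reads. It was 7.26-fold higher in atprmt5 than in wild type (4.89 to 11.2). In m90 it was 0.302 of its level in atprmt5 (0.224 to 0.402) and was the 1 regulator counted as lower in that pair, with 0 higher, where 2.34% of loci were lower and 3.63% higher. It stayed 2.19-fold above wild type in m90 (1.38 to 3.56), short of the count on the RPKM + 1 scale. PAP1 and TT8 thus differed between the mutant lines: in m90 the PAP1 level was close to that in atprmt5 while TT8 was not. TT8 per PAP1 was 0.911 in atprmt5 (0.722 to 1.15), 0.284 in m90 (0.204 to 0.389) and 0.0840 in s215 (0.0429 to 0.153), with wild type at 0.635 (0.350 to 1.16).

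GL3 (AT5G41315, chromosome 5, 16529090 to 16533287, plus strand, 8 exons), the bHLH factor named for its trichome mutant, was low throughout, at 0.702 RPKM in wild type against 0.666 in atprmt5, 1.43 in m90 and 0.239 in s215. Behind these values were 23, 23, 49 and 8 reads. Its annotated start overlaps the noncoding locus AT5G06145 on the other strand, and the sources used here do not give the use of strand in counting. The m90 level was above wild type by 2.04-fold (1.24 to 3.57), and atprmt5 was not separable from wild type (ratio 0.949, 0.520 to 1.81).

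EGL3 (AT1G63650, chromosome 1, 23599413 to 23603164, plus strand, 8 exons), its close relative, was at 5.16 RPKM in wild type against 6.40 in atprmt5, 6.27 in m90 and 0 in s215. Those first 3 libraries lay close together on 211, 270 and 263 reads, with ratios to wild type of 1.24 in atprmt5 (1.03 to 1.49) and 1.21 in m90 (1.01 to 1.46). With s215 set to the floor of 3 reads, EGL3 was 70.4-fold below wild type and 87.3-fold below atprmt5. With the counting error of both libraries, the upper 95% limits of its ratio were 0.0176 of wild type and 0.0142 of atprmt5. GL3 and EGL3 were 81.1% identical over aligned coding sequence, with 0 of 2452 windows of the EGL3 transcript within 2 mismatches of GL3. The 3 bHLH genes together were at 6.75 RPKM in wild type against 13.5 in atprmt5, 9.63 in m90 and 0.647 in s215. EGL3 made up most of that sum in wild type and m90, whereas EGL3 and TT8 were level in atprmt5, at 1.001 EGL3 per TT8 (0.833 to 1.21).

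TTG1 (AT5G24520, chromosome 5, 8370317 to 8372847, minus strand, 3 exons), the WD40 scaffold of the complex, was at 5.94 RPKM in wild type against 6.35 in atprmt5, 7.77 in m90 and 11.3 in s215. Wild type and atprmt5 were not separable (ratio 1.07, 0.861 to 1.33), and s215 was highest at 1.90 times wild type (1.56 to 2.30). No comparison carried TTG1 past 2-fold.

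**Figure D2:**
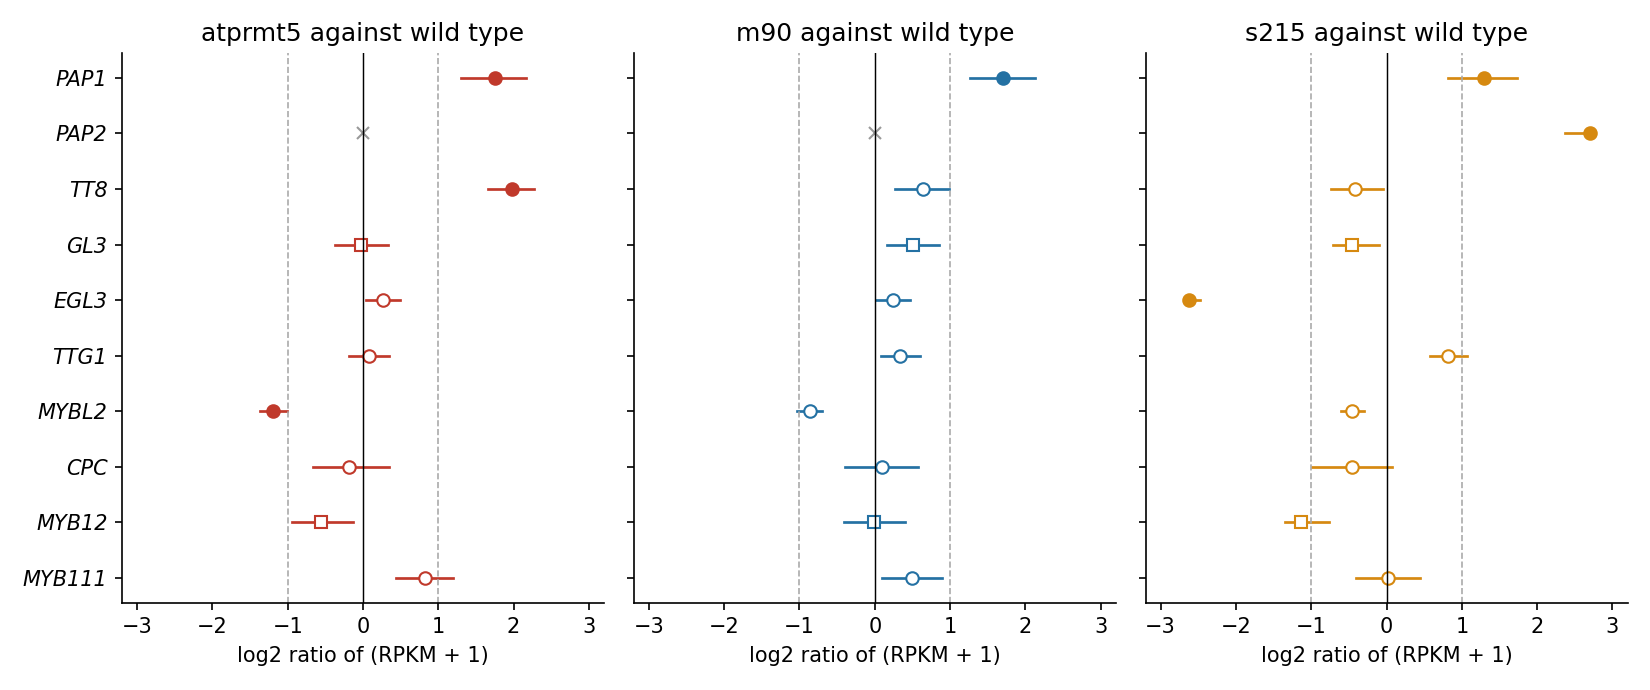
The log2 ratio of RPKM + 1 to wild type (horizontal axis) for each regulator in atprmt5, m90 and s215, with lines for 95% counting intervals and dashed lines at 2-fold. Filled circles are counted as different, squares mark GL3 and MYB12 below the expression minimum, and crosses mark PAP2 where both libraries had 0 reads: PAP1 is filled in all 3 panels, TT8 and MYBL2 in the atprmt5 panel alone.

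MYBL2 (AT1G71030, chromosome 1, 26795052 to 26796532, minus strand, 3 exons), a single-repeat MYB repressor of the pathway, was the most abundant of the 10 in every library, at 47.2 RPKM in wild type against 20.2 in atprmt5, 25.5 in m90 and 34.2 in s215. Wild type was highest and atprmt5 lowest, and none of the 4 counting intervals overlapped. The ratio to wild type was 0.426 in atprmt5 (0.376 to 0.484), 0.539 in m90 (0.479 to 0.606) and 0.725 in s215 (0.651 to 0.808). Against atprmt5, MYBL2 was 1.26-fold higher in m90 (1.096 to 1.46) and 1.70-fold higher in s215 (1.49 to 1.94).

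The repressor and the activator moved in opposite directions between wild type and atprmt5. MYBL2 stood at 34.1 times the PAP1 level in wild type (22.3 to 54.6), 2.87 times in atprmt5 (2.32 to 3.57), 3.75 times in m90 (3.03 to 4.64) and 7.05 times in s215 (5.56 to 9.08). Wild type was thus set apart from all 3 mutant lines in this ratio, and the intervals of atprmt5 and m90 overlapped.

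**Figure D3:**
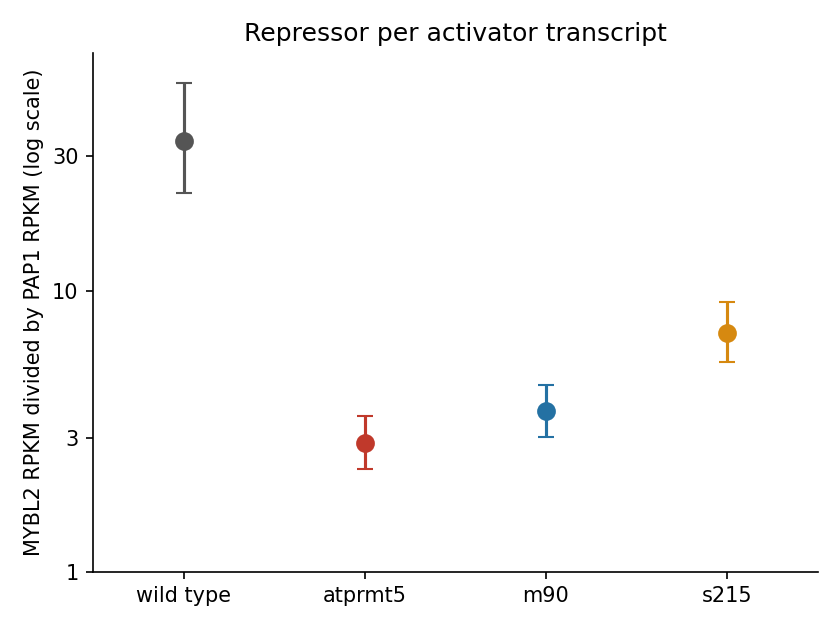
The MYBL2 level divided by the PAP1 level, both in RPKM (vertical axis, log scale), in each library, with bars for 95% counting intervals. The ratio is 34.1 in wild type and between 2.87 and 7.05 in atprmt5, m90 and s215.

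CPC (AT2G46410, chromosome 2, 19049021 to 19050369, minus strand, 3 exons), a mobile MYB of the root epidermis that can also repress anthocyanin genes, was at 4.86 RPKM in wild type against 4.17 in atprmt5, 5.23 in m90 and 3.25 in s215. Its order was m90, wild type, atprmt5, s215, and no library was separable from wild type: the ratios were 0.858 in atprmt5 (0.566 to 1.34), 1.08 in m90 (0.716 to 1.61) and 0.670 in s215 (0.419 to 1.07). Of these repressors, MYBL2 was counted as lower in atprmt5 and CPC was not.

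MYB12 (AT2G47460, chromosome 2, 19476326 to 19479597, plus strand, 3 exons), an activator of flavonol synthesis, was low, at 1.55 RPKM in wild type against 0.730 in atprmt5, 1.53 in m90 and 0.158 in s215. Wild type and m90 were level on 39 and 40 reads, atprmt5 was at 0.473 of wild type (0.258 to 0.837), and s215 had 4 reads. Its partner in function MYB111 (AT5G49330, chromosome 5, 19998823 to 20001572, minus strand, 3 exons) was at 1.81 RPKM in wild type against 3.97 in atprmt5, 2.96 in m90 and 1.85 in s215. MYB111 was 2.20-fold above wild type in atprmt5 (1.51 to 3.26) and 1.64-fold in m90 (1.099 to 2.48), neither reaching the count on the RPKM + 1 scale, and s215 was not separable from wild type (ratio 1.02, 0.649 to 1.61). MYB12 and MYB111 therefore lay on opposite sides of wild type in atprmt5, each on fewer than 100 reads, and their sum was 3.35 RPKM in wild type and 4.70 in atprmt5.

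The genes that these regulators act on were taken from lists written for this work. In atprmt5 against wild type, 8 of 9 late anthocyanin genes stood higher and 0 lower, their median log2 ratio being 2.71. Of 8 early flavonoid enzymes 6 passed the expression minimum and 2 were higher, CHS and F3H, with a median of 0.73 over all 8. Over all loci tested, 1.8% were higher and 3.32% lower in this pair. In m90 against wild type the same 8 late genes were higher, at a median of 1.48 over the list, and 0 early enzymes were higher or lower. There 2.61% of loci were higher and 2.62% lower. Late genes summed to 39.5 RPKM in wild type against 329 in atprmt5, 95.8 in m90 and 11.8 in s215, and early enzymes to 101 RPKM, 302, 165 and 12.6. Both sums had the order atprmt5, m90, wild type, s215, but some genes of each list did not. CHS alone gave 198 of the 302 RPKM of early enzymes in atprmt5. SAT (16.9 against 19.2 RPKM) and F3'H (2.93 against 3.595 RPKM) were lower in m90 than in wild type. 4CL3 was higher in m90 than in atprmt5, and UGT91A1 and UGT84A1 also departed from the order. 3AT1 and 3AT2 were above wild type in s215. For F3'H, SAT, 4CL3 and 3AT2 these departures were within counting error. TT8 and EGL3 had the order of the sums among the regulators, and PAP1 did not. EGL3 in m90 was, however, not separable from atprmt5 (ratio 0.980, 0.823 to 1.17). MYB111 was also highest in atprmt5 and next in m90, and its s215 level was not separable from wild type (ratio 1.02, 0.649 to 1.61). In m90, 7 of 9 late genes were lower than in atprmt5, where 2.34% of loci were lower. In that pair PAP1 was at 0.968 of atprmt5, TT8 at 0.302, DFR at 0.182 and UF3GT, an anthocyanin glycosyltransferase gene, at 0.326 (0.260 to 0.407).

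The late genes of s215 were compared with its regulators. PAP1 and PAP2 summed to 10.4 RPKM and TTG1 stood at 11.3, the highest of the 4 libraries in each case. TT8 was at 0.408 RPKM and EGL3 at 0, and 0 of 9 late genes were higher and 2 lower than in wild type, LDOX and SAT, where 12.7% of loci were higher and 24.3% lower. The late genes were not alike: the acyltransferase gene 3AT1 was at 2.40 times wild type (1.32 to 4.83), short of the count on the RPKM + 1 scale. Below wild type, though also short of the count, were DFR at 0.467 (0.286 to 0.741), GSTF12 at 0.742 (0.559 to 0.978) and 5MAT at 0.133 (0.0148 to 0.572). The acyltransferase gene 3AT2 was not separable from wild type (ratio 2.85, 0.720 to 10.9). UF3GT was not separable from wild type, and UGT75C1 was at 0.803 RPKM against 1.44 in wild type. No interval is given for UGT75C1, whose recovered length of 412 bases was far short of the annotated 1648. LDOX, the enzyme that makes anthocyanidins, was at 0.320 RPKM where wild type had 5.14, or 0.0624 of it (0.0245 to 0.133), and CHS at 5.06 against 50.6 RPKM. Against atprmt5, all 9 late genes were lower in s215, as were TT8 and EGL3 among the regulators, where 23.2% of loci were lower and 12.7% higher, and PAP2 was the 1 regulator counted as higher. The part of the low root and leaf markers of this library in these values was not tested.

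**Figure D4:**
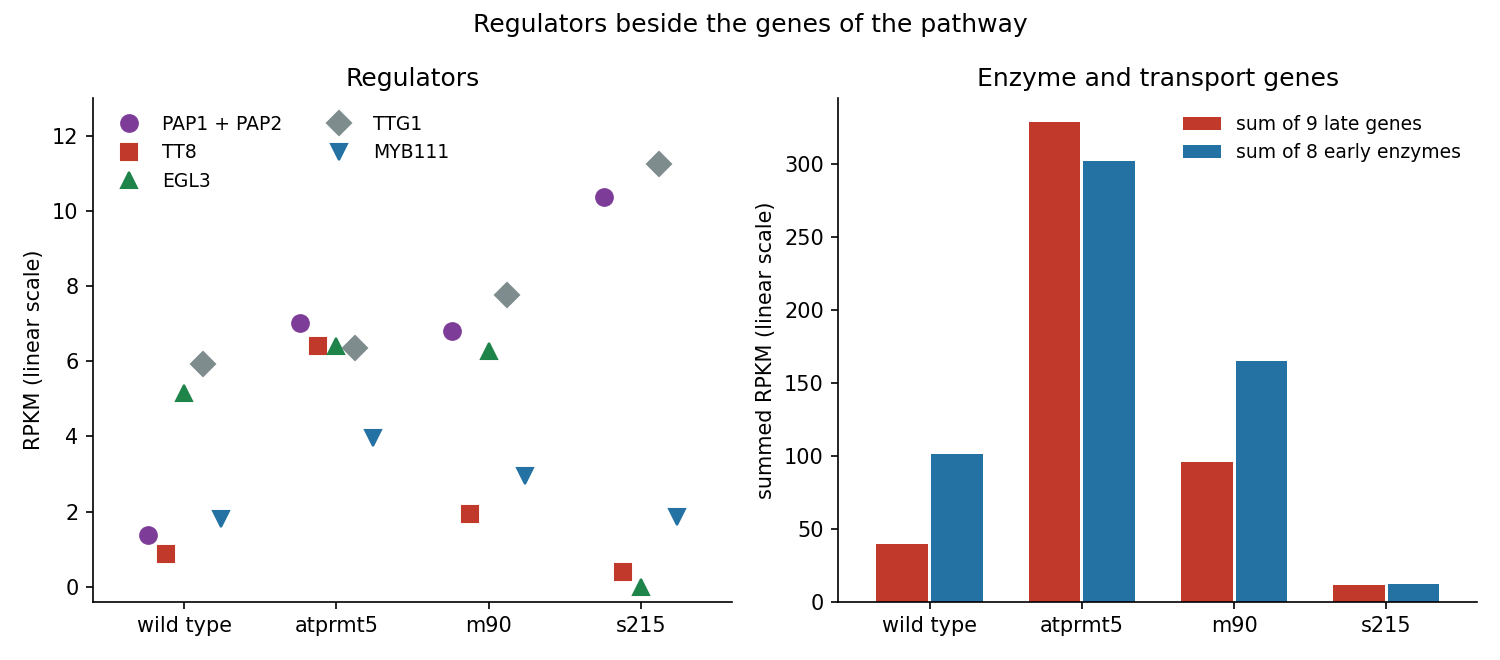
Left, RPKM of the PAP1 and PAP2 sum, TT8, EGL3, TTG1 and MYB111 in each library (1 point per library, shifted sideways for legibility); right, summed RPKM of 9 late anthocyanin genes and 8 early flavonoid enzymes. The enzyme sums are highest in atprmt5 and lowest in s215, where PAP1 with PAP2 reaches 10.4 RPKM.

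Upstream sequence is shown for PAP1, TT8 and DFR, the activator MYB, the bHLH gene that was lower in m90 than in atprmt5 and the late gene with the highest ratio to wild type in atprmt5. Each run is the 250 bases before the annotated gene start in RefSeq TAIR10.1, on the strand of the gene: chr1:21235293-21235542 for PAP1, chr4:6181631-6181880 for TT8 and chr5:17166033-17166282 for DFR. Capitals mark matches on either strand to CANNTG, the core that bHLH factors bind and which includes CACGTG, and to ANCNNCC, a MYB recognition element.
PAP1: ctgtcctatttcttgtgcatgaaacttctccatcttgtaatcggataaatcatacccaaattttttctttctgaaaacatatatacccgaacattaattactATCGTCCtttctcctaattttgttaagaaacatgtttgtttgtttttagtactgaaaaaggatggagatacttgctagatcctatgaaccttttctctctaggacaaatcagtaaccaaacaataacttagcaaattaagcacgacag
TT8: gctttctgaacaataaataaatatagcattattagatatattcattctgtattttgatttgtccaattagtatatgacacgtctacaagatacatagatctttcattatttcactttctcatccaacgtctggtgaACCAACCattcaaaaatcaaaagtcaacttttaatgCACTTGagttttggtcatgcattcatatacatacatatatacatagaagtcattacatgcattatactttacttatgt
DFR: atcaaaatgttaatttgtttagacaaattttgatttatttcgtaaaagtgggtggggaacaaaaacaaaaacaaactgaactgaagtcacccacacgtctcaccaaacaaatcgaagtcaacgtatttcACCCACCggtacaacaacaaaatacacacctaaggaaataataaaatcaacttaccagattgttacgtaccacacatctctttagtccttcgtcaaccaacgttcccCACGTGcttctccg
PAP1 held 1 ANCNNCC and 0 CANNTG, whereas TT8 and DFR each held 1 of both, and the CANNTG of DFR was a CACGTG. Among the 10 regulators 6 had a CANNTG, 6 an ANCNNCC and 2 a CACGTG, PAP2 and MYB12. Among the 9 late genes the numbers were 6, 8 and 3. Of 23378 promoters of this length, 56.3% held CANNTG, 49.1% ANCNNCC and 7.20% CACGTG, so matches to the short cores are common everywhere. A match is a description of the letters and not a site of binding.

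The positions of PAP2 and EGL3 were examined because each had 0 reads in some libraries, a comparison chosen after these values were seen. MYB113 and MYB114, next to PAP2, were at 0 in wild type, atprmt5 and m90, and at 0.311 and 1.60 RPKM in s215. The read numbers behind both s215 values could not be recovered reliably. For MYB114 the recovered length of 105 bases was far short of every annotated transcript, which gives too few reads. No interval is therefore given for MYB113 or MYB114, and whether they were separable from wild type could not be decided. Beyond MYB113, AT1G66360 was at 0 in wild type and s215, and at 0.139 RPKM in atprmt5 and 0.206 in m90. The locus after it, the gibberellin response repressor gene RGL1, was at 2.67 RPKM in wild type and 6.63 in s215. On the other side of PAP2, the calmodulin-like gene CML23 was at 9.91 and 1.88 RPKM, and AT1G66420, further out, at 0.0679 and 0. Around EGL3 the next loci on both sides had reads in s215, AT1G63640 at 5.62 RPKM against 17.5 in wild type and AT1G63660 at 18.1 against 21.3. Such patterns were frequent in s215: 115 loci were at 0 there and at 3 RPKM or more in each other library, EGL3 among them, where wild type, atprmt5 and m90 had 0 such loci each. Conversely 21 loci, PAP2 among them, were at 3 RPKM or more in s215 and at 0 in the rest, against 1 locus for atprmt5 and 0 for wild type and m90.

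**Figure D5:**
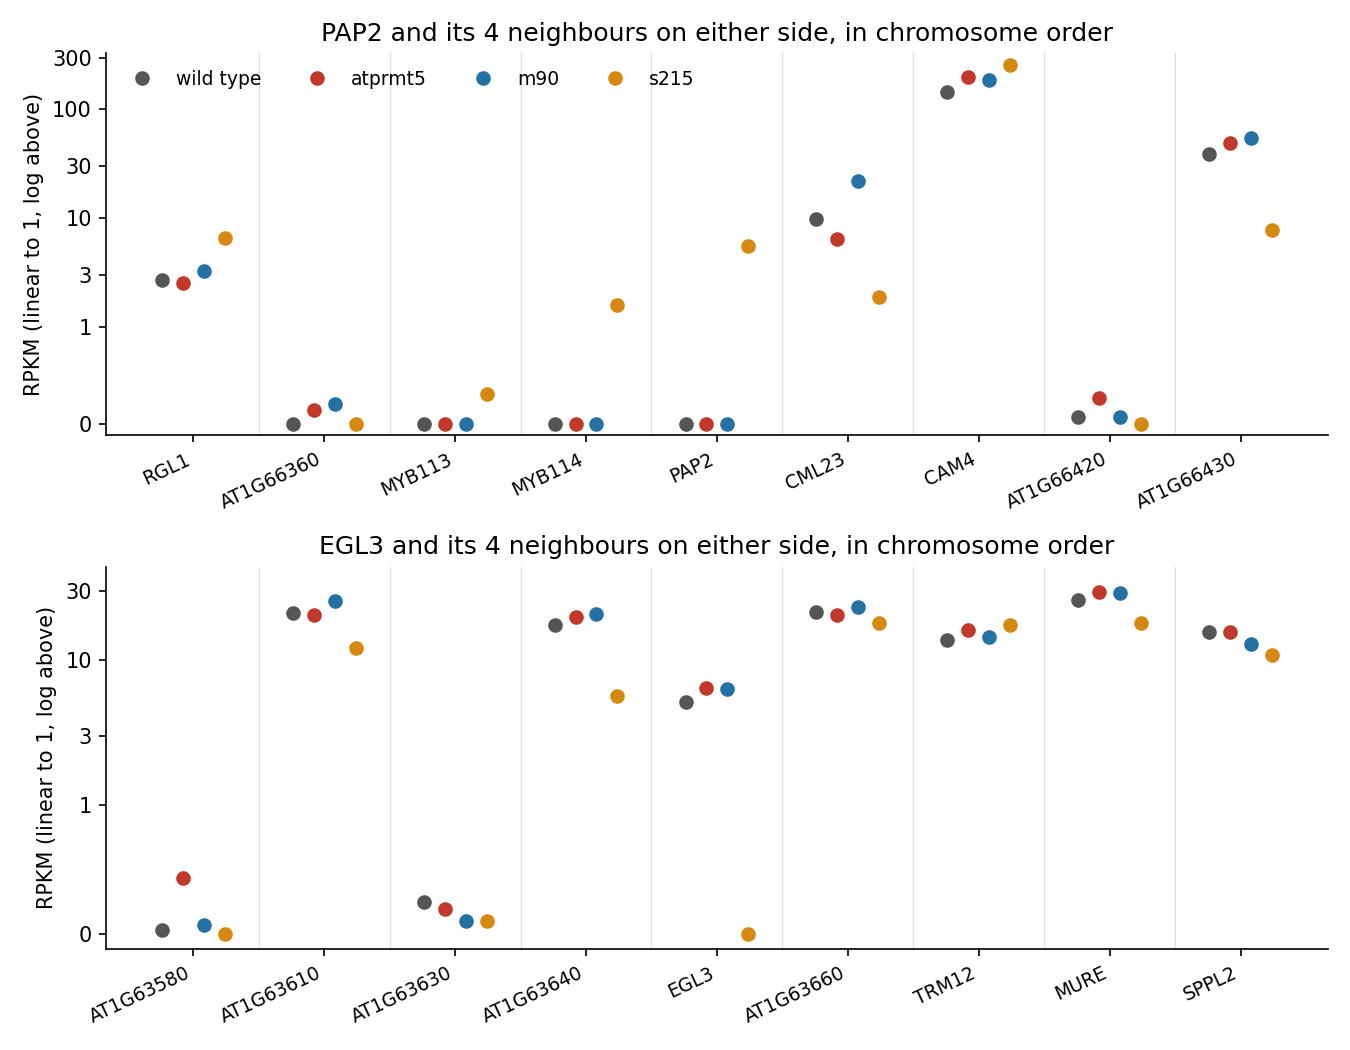
RPKM (vertical axis, linear up to 1 and logarithmic above) of PAP2 and EGL3 and the 4 measured loci on either side of each, in chromosome order, in the 4 libraries. MYB113, MYB114 and PAP2 are above 0 in s215 alone, and EGL3 is at 0 in s215 between neighbours that have reads.

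Likeness to other genes was measured over the 4 libraries as the distance between log2(RPKM + 1) values centred on each gene's mean, among 18688 loci, for the 5 regulators that passed the expression minimum and had a range of at least 1. Nearest to PAP1 were ERD5, a proline dehydrogenase gene (distance 0.23), the RNA polymerase subunit gene NRPB9B (0.27) and the ferric reductase gene FRO2 (0.28). TT8 lay nearest to AT1G55990 (0.27), NAC044 (0.35) and AT3G15720 (0.38). Among pathway genes, picked here after their values were seen, those of similar amplitude were close to TT8, with UGT75C1, a glucosyltransferase of anthocyanins, at rank 18 and the malonyltransferase gene 5MAT at rank 31 of 18687, while for PAP1 they were at ranks 10582 and 13685. The acyltransferase genes were also nearer to TT8 than to PAP1, 3AT2 at rank 37 against 301 and 3AT1 at rank 62 against 1078. DFR, with a far wider range, was at rank 14516 for TT8. Also far from TT8 were FLS1 at rank 7685, F3H at 13438, CHS at 14894, LDOX at 15968 and SAT at 16516. MYBL2 was nearest to AT1G16820 (0.11), AT4G00560 (0.14) and ACR9 (0.17), EGL3 to BRXL4, MAP70-5 and AGL87 (0.08 to 0.11), and PAP2 to ABCC7, AT1G71530 and RLP35 (0.07 to 0.10). With 4 libraries, many genes share a profile.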

How the data were processed

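The authors deposited 1 table of RPKM values for 24288 loci in 4 seedling libraries, 1 per genotype, and all 4 columns matched a sample by name. Per the submitters' processing notes, TopHat2 2.0.11 and the genome build TAIR10 were used, and per the labels' protocols the libraries were strand-specific. The sources used here do not give the counting program, whether it used strand, or how it handled reads with several matches. Of the loci, 24183 matched RefSeq TAIR10.1, whose 5 nuclear chromosomes supplied coordinates and sequence.

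Multiplied by annotated length, the commonest values gave what 1 read was worth in each library, and so the totals used for scaling. For each gene, the smallest whole length at which all 4 values came to whole numbers of read bases (reads of 100 bases, tolerance 1e-05) gave its reads, which were rounded. These lengths are not checked by the annotation, and a length that is too short gives too few reads and too wide an interval. From them come 95% Poisson intervals for levels and Clopper-Pearson intervals for ratios, covering counting error only, and a floor of 3 reads for genes at 0. Differences are log2((RPKM + 1)/(RPKM + 1)), counted at 2-fold among 18688 loci averaging at least 1 RPKM, which understates changes of low genes. With 1 library per genotype no test was run. The regulators and lists were chosen with earlier results of these data known. Named genes are the 10 regulators, up to 4 genes of a pathway list past 2-fold in atprmt5 with its best known gene, and the 3 loci nearest in profile. The chromosomal neighbours and the ratios between genes within a library were added after the values were seen. The steps were checked on simulated data, with Python 3.11.15, numpy 2.4.6, pandas 2.3.3, scipy 1.17.1 and Biopython 1.88. The alternatives were pseudocounts of 0.1 and 5 RPKM, median-ratio and TMM-style scaling, no minimum or a mean of 5 RPKM, and a fold of 1.5.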

Additional observations from a re-analysis of the deposited data

How the results depend on the processing

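No paired analysis was possible because each genotype has 1 library, and no replicate could be left out. Both rescalings kept every count of regulators, while they moved the median log2 ratio of all loci in s215 against wild type from -0.15 to -0.01. With a pseudocount of 5 RPKM, 0 regulators stood higher in atprmt5 or m90 than in wild type, 1 (PAP2) in s215, and 0 stood lower in m90 than in atprmt5. With 0.1 RPKM, 2 stood above wild type in m90, PAP1 and TT8. At a mean of at least 5 RPKM, which leaves out TT8, EGL3 and PAP2, 1 was higher in atprmt5 and 1 in s215 than in wild type, 0 were below wild type in s215, 0 were below atprmt5 in m90, and 0 differed between s215 and atprmt5. With no minimum, 2 were lower in s215 than in wild type, EGL3 and MYB12. At 1.5-fold, against wild type 2 stood higher in m90 and 1, MYBL2, lower, and 3 were above atprmt5 in s215, PAP2, TTG1 and MYBL2. Counts of other lists moved too. With a mean of at least 5 RPKM, 3 late genes in place of 8 were above wild type in atprmt5 and 3 in m90, where a pseudocount of 5 RPKM also left 3, and both settings left 3 below atprmt5 in m90. In s215 against wild type, a pseudocount of 0.1 RPKM made 2 late genes higher and 4 lower. Of the further repressors, both rescalings left 1 lower in atprmt5 than in wild type, a pseudocount of 5 RPKM left 0 lower, and either that or a minimum of 5 RPKM left 0 higher. Of 200 log2 ratios recomputed for single regulators under other pseudocounts and scalings, 157 stayed within their counting interval and 43 moved outside it, and no called ratio changed sign. Depth limits GL3, MYB12 and, in s215, TT8, with as few as 4 reads.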

Other observations

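The single genes named from the lists here, other than ETC3, LBD37 and LBD39, were chosen after their values were seen. Of 9 MYB and bHLH relatives of the regulators, 3 passed the expression minimum, GL1, MYB23 and MYC1, and 0 of them passed 2-fold in atprmt5 or m90 against wild type. WER, the root epidermis MYB, fell short of the minimum and was at 1.18 RPKM in wild type against 0.548 for atprmt5 and 2.16 for m90, a ratio of m90 to atprmt5 of 3.95 (1.75 to 9.81). MYC1, a bHLH relative of GL3, was at 10.4 RPKM in wild type against 17.2 for atprmt5 and 16.3 for m90 (ratios 1.66, 1.45 to 1.90, and 1.57, 1.37 to 1.80). In s215, MYC1 was at 1.31 RPKM, 0.126 of wild type (0.0901 to 0.173), and GL1, the trichome MYB, WER and the R3 repressor gene TRY were at 0. GL2, a homeodomain gene of epidermal cell fate, was at 12.2 RPKM in wild type and 4.11 in s215. The root markers of that library were near 0, and their part in these values was not tested.

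Of 13 further repressors of the pathway 10 passed the expression minimum, and 1 was higher in atprmt5 than in wild type and 2 were lower. Over all loci tested, 1.8% were higher and 3.32% lower. The higher gene was ETC3, on 18 reads against 1, which passed the minimum on atprmt5 alone. The median over all 13 was -0.40 against -0.00 over all loci tested. The lower pair were the nitrate-responsive LOB domain genes LBD37, at 19.6 against 40.4 RPKM (ratio 0.486, 0.439 to 0.538), just past 2-fold on the RPKM + 1 scale, and LBD39, at 13.6 against 31.4 RPKM (ratio 0.432, 0.370 to 0.504). LBD39 was also lower in m90, at 11.4 RPKM. In s215 against wild type, 1 further repressor was higher and 5 were lower, where 12.7% of loci were higher and 24.3% lower. Those lower were TRY, MYB3, LBD38, LBD39 and SPL9, with LBD39 at 0.0479 of wild type (0.031 to 0.071). MYB4, a repressor of phenylpropanoid genes, was the 1 higher, at 39.6 RPKM in s215 against 11.01 in wild type. Of 8 light regulators 0 passed 2-fold in atprmt5 against wild type. The light-response activator HY5 was at 18.02 RPKM in wild type against 8.58 in atprmt5, 18.2 in m90 and 8.53 in s215. In atprmt5 HY5 was at 0.476 of wild type (0.384 to 0.583), just short of the count on the RPKM + 1 scale. It was the 1 light regulator counted as higher in m90 than in atprmt5, where 3.63% of loci were higher.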
